A study of Mus musculus with 4 samples.

Results

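The MHC class II genes studied here were Cd74, H2-Aa, H2-Ab1, H2-Eb1, H2-DMa and Ciita. They were taken by gene symbol from the gene rows of the 2 gene expression matrices, and all 6 were found among 32287 gene features. Each gene was followed across cell classes that were defined by markers and across both conditions. Cells came from spinal cords of adult Cx30-CreERT2 mice crossed to a tdTomato reporter, in which tamoxifen labels astrocytes through the Cx30 promoter. All animals, the uninjured controls included, had received tamoxifen and, through the blood, a pool of AAV-PHP.eB viruses carrying candidate enhancers. Injured animals had a contusion of the thoracic cord and were sampled at 3 days after injury, the controls had no injury, and tdTomato-positive cells were sorted. The study's methods state that conditions held both sexes, but by sex-linked transcripts the uninjured library was nearly all male. Among astrocyte-like cells, 2 of 3268 uninjured and 73 of 407 injured cells carried Xist, the transcript of the inactive X chromosome, and no Y-linked UMI, and no other uninjured class held such a cell. Sex and injury therefore cannot be told apart in a comparison of all cells. Animals were pooled into 1 gene expression library per condition, so no difference below has a replicate check and none was tested.

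MHC class II molecules display peptides from ingested proteins to CD4+ T cells. H2-Aa with H2-Ab1, and H2-Eb1 with a separate alpha chain, form the surface molecules of the mouse, Cd74 (the invariant chain) escorts them to the endosome, and H2-DMa is part of the chaperone that exchanges the Cd74 remnant for a peptide. Ciita is the coactivator that drives these genes. Professional antigen-presenting cells (dendritic cells, B cells and macrophages) carry high class II levels, and resting microglia carry little.

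Of the 6 genes, 4 lie within the MHC on mouse chromosome 17 (GENCODE M21, GRCm38). H2-DMa (ENSMUSG00000037649) spans chr17:34119541-34139101 on the plus strand and overlaps Brd2, CR974462.4 and Gm20493 on the other strand and CR974462.3 on its own. H2-Ab1 (ENSMUSG00000073421) spans chr17:34257689-34269419 on the plus strand. H2-Aa (ENSMUSG00000036594) spans chr17:34282744-34287823 on the minus strand. H2-Eb1 (ENSMUSG00000060586) spans chr17:34305867-34316674 on the plus strand and overlaps Gm20513 on the other. Ciita (ENSMUSG00000022504) lies on chr16:10480059-10528418 and overlaps Dexi on the other strand.

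Class II promoters are known for an X box that binds the RFX complex and CREB, followed by a Y box (ATTGG) that binds NF-Y, and Ciita acts through the proteins bound there. The 250 bases before the start of H2-Aa and H2-Eb1, 2 chain genes that were found in the same cells below, were read from RefSeq (GRCm38.p6). Entries for 3 of the 6 genes were found, and those for Cd74, H2-Ab1 and Ciita were missing. Capitals mark ATTGG on the gene's strand and every TGANG (N is any base) that begins at most 35 bases ahead of it, where TGANG stands for the CREB-like end of the X box. H2-Aa is chr17:34287824-34288073 on the minus strand and H2-Eb1 is chr17:34305617-34305866 on the plus strand.
H2-Aa: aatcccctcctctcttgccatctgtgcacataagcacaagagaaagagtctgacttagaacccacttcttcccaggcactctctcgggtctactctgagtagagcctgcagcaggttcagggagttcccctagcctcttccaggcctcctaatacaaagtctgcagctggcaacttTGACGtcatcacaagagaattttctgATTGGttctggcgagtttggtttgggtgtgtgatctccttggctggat
H2-Eb1: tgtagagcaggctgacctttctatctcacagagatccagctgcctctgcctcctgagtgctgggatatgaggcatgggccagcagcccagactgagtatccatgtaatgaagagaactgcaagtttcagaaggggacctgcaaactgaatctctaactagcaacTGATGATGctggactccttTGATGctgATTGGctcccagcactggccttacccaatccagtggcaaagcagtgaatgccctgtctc
ATTGG began 48 bases before the start of H2-Aa and 59 bases before that of H2-Eb1, where the first pair of TGANG matches overlap and an exon of Gm20513 lies in the stretch. On either strand, ATTGG was held by 33.8% of 32851 promoter stretches of this length, and TGANG followed by ATTGG by 5.59%. The wording of this pair was chosen with these sequences in view, and a match is a description, not a bound site. The first entry of H2-DMa held neither, and its second entry held ATTGG, 198 bases before the start, without the pair.

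After filtering, 879 injured cells held 8499672 gene UMIs (median 6816 per cell) and 4159 uninjured cells held 15543460 (median 3343). The 2 libraries shared 7 cell barcodes. Clustering left out the class II genes, every other H2 gene and the pathway lists used below, so that the classes did not rest on them. Values are CPM, the summed UMIs of a gene in a class per 1000000 gene UMIs of that class. Brackets hold exact 95% intervals, which cover counting error only. In these pooled cells, fewer cells with a transcript and less of it per cell cannot be told apart from a class sum alone, so shares of cells are given as well.

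One cluster held the immune cells, with 129 injured and 32 uninjured cells (14.7% and 0.769% of the kept cells). Clustered again on their own, these cells formed 7 sub-clusters. Sub-clusters 0, 2, 3 and 5 were microglia-like, with P2ry12 and Tmem119, genes of resident microglia. Together they held 73 injured and 23 uninjured cells. Sub-clusters 1, 4 and 6 were macrophage- or monocyte-like, with 56 injured and 9 uninjured cells. P2ry12 was at 408 CPM in injured microglia-like cells against 52.2 CPM in injured macrophage- or monocyte-like cells. Sub-cluster 6 carried Mrc1 and Pf4, genes of border-associated macrophages, in all 6 of its uninjured cells. Sub-cluster 1 carried Ccr2, the chemokine receptor of recruited monocytes, in 11 of 29 cells, and also Pf4 in 15 and Mrc1 in 10. In sub-cluster 4, Ccr2 was found in 10, Pf4 in 10 and Mrc1 in 2 of 23 injured cells. The classes rested on different sub-clusters by condition. Injured macrophage- or monocyte-like cells were mostly of sub-clusters 1 and 4 (29 and 23 cells), and the uninjured ones mostly of sub-cluster 6 (6 of 9 cells). Injured microglia-like cells were mostly of sub-clusters 0 and 5 (35 and 26 cells), and the uninjured ones of sub-cluster 3 (16 of 23 cells). These cells carried little of the sorted label. tdTomato reached 32.8 CPM in injured immune cells and had no UMI in the 32 uninjured ones, against 2243 and 423 CPM in astrocyte-like cells.

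Almost all UMIs of Cd74, H2-Aa, H2-Ab1 and H2-Eb1 came from the macrophage- or monocyte-like cells, in both conditions, but the name of this class depended on the clustering. Cd74 (ENSMUSG00000024610) spans chr18:60803848-60812652 on the plus strand. Of its 1428 UMIs in the injured library, 95.9% (94.7 to 96.8%) were in these 56 cells. In the uninjured library they held 95.5% (92.0 to 97.7%) of 242 Cd74 UMIs, from 9 cells. H2-Aa was still narrower, with 520 of 525 injured and 82 of 83 uninjured UMIs in this class. H2-Ab1 had 386 of 405 injured and 51 of 55 uninjured UMIs there, and H2-Eb1 407 of 412 and 61 of 66. When the immune cells were clustered at a resolution of 1.0, 23 injured and 3 uninjured of these cells no longer met the naming rule and stayed unnamed immune cells. The named class then held 34.9% of injured Cd74, 27.2% of H2-Aa, 23.7% of H2-Ab1 and 29.4% of H2-Eb1 UMIs, while the microglia-like shares did not change. All immune cells together held at least 97.5% of the injured UMIs of each of the 4 genes under both clusterings. H2-DMa differed from these genes. Microglia-like cells held 57.3% (51.7 to 62.8%) of its 321 injured UMIs, and astrocyte-like cells, the most numerous class, held 56.2% (46.9 to 65.2%) of its 121 uninjured UMIs. Ciita gave only 10 injured and 20 uninjured UMIs over all cells, of which 5 and 2 were in macrophage- or monocyte-like cells.

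**Figure D1:**
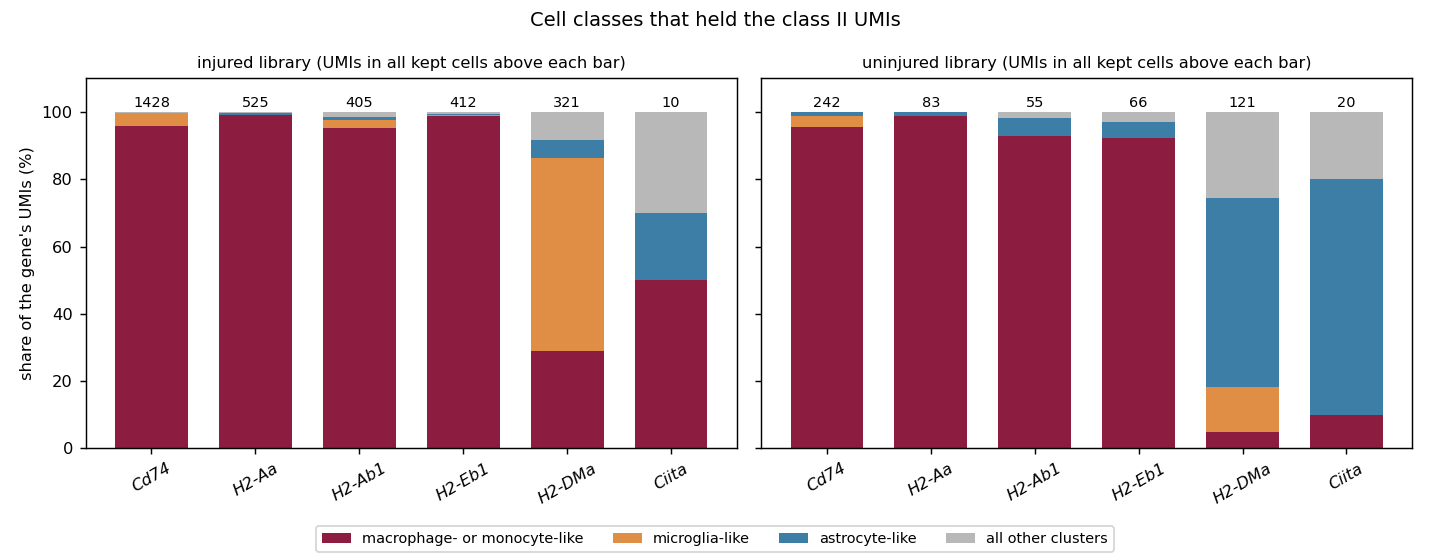
Share (%, y axis from 0) of each gene's UMIs held by the macrophage- or monocyte-like, microglia-like, astrocyte-like and all other cells, in the injured library (left) and the uninjured library (right), with the gene's UMIs in all kept cells printed above each bar. Cd74, H2-Aa, H2-Ab1 and H2-Eb1 were almost wholly in macrophage- or monocyte-like cells, whereas H2-DMa and Ciita were spread over more classes.

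In injured macrophage- or monocyte-like cells, Cd74 was at 1879 CPM (1781 to 1981), against 46.4 CPM (34.9 to 60.6) in injured microglia-like cells and 0.453 CPM (1 UMI in 407 cells) in astrocyte-like cells. The first level was 40.5 times the second (30.8 to 54.2). In uninjured cells the same order held, with 5780 CPM (5059 to 6576), 103 CPM (44.5 to 203) and 0.248 CPM (3 UMIs in 3268 cells). The intervals of the 3 classes, which cover counting error only, did not overlap in either condition. Shares of cells gave another picture. A Cd74 UMI was found in 12 of 56 injured macrophage- or monocyte-like cells (21.4%, 11.6 to 34.4%) and 24 of 73 injured microglia-like cells (32.9%, 22.3 to 44.9%). In uninjured cells the counts were 7 of 9 and 4 of 23. Cells with a marker of B cells or dendritic cells weighed heavily on the injured level. In the macrophage- or monocyte-like class, 5 such injured cells held 1634 of the 2682 UMIs of Cd74, H2-Aa, H2-Ab1 and H2-Eb1. Without such cells Cd74 was at 890.7 CPM. Cd79b, Itgax, Batf3 and Naaa were not counted as such markers. An injured cell with 3 Itgax UMIs and 468 UMIs of the 4 genes therefore stayed in.

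The alpha and beta chains separated the immune classes further. H2-Aa stood at 714 CPM (654 to 778) in injured macrophage- or monocyte-like cells and gave 1 UMI in the 73 injured microglia-like cells (0.860 CPM, 0.0218 to 4.79). H2-Eb1 stood at 559 CPM (506 to 616) against 1 UMI (0.860 CPM). H2-Ab1 stood at 530 CPM (478 to 585) against 7.74 CPM (3.54 to 14.7), a ratio of 68.5 (35.7 to 151). None of the 3 chains had a UMI in the 23 uninjured microglia-like cells. There, H2-Aa was at least 53.0-fold, H2-Ab1 at least 33.0-fold and H2-Eb1 at least 39.4-fold higher in the macrophage- or monocyte-like cells, with the empty side set at 3 UMIs over the class.

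H2-DMa did not separate the immune classes. It was at 128 CPM (103 to 156) in injured macrophage- or monocyte-like cells and 158 CPM (136 to 183) in injured microglia-like cells, with a ratio of the first to the second of 0.807 (0.622 to 1.04). In uninjured cells it was at 150 CPM (55.1 to 327) and 206 CPM (118 to 335). Its level in astrocyte-like cells was far lower, at 7.71 CPM (4.49 to 12.3) injured and 5.62 CPM (4.37 to 7.13) uninjured. Injured immune cells as a whole were 19.0 times (11.7 to 33.1) and uninjured ones 33.3 times (19.6 to 54.5) above astrocyte-like cells.

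**Figure D2:**
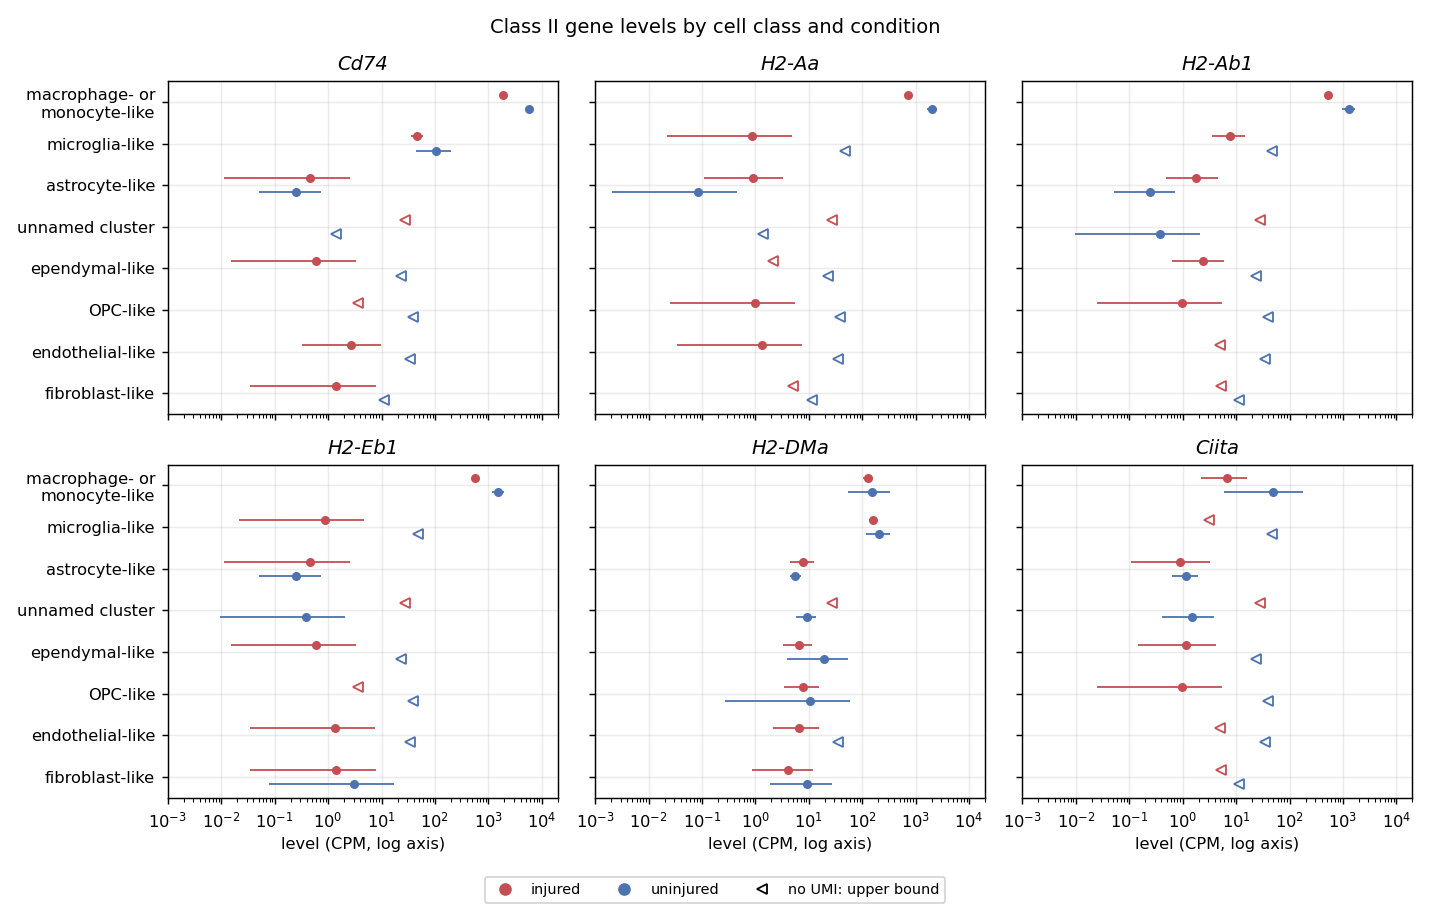
Level of each class II gene (x axis, CPM on a log axis) by cell class (y axis) in injured and uninjured cells, with exact 95% Poisson intervals of the UMI sums as bars. Open triangles mark classes with no UMI and stand at the upper bound of the interval. Mural-like cells (13 injured, 3 uninjured) were too few to plot. Cd74 fell from macrophage- or monocyte-like to microglia-like to astrocyte-like cells in both conditions, whereas H2-DMa was about as high in both immune classes.

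Outside the immune cells, H2-DMa was the member with the most UMIs in nearly every class. In injured cells it was at 6.49 CPM (3.24 to 11.6) in ependymal-like, 7.85 CPM (3.39 to 15.5) in OPC-like (oligodendrocyte precursor), 6.68 CPM (2.17 to 15.6) in endothelial-like and 4.16 CPM (0.858 to 12.1) in fibroblast-like cells. These neighbours and the astrocyte-like cells overlapped in their intervals, so no order was set among them. The unnamed cluster, which had astrocyte markers beside neuron and mitochondrial transcripts, gave 9.10 CPM (5.83 to 13.5) in 690 uninjured cells.

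Myeloid genes measured how much myeloid RNA was counted in astrocyte-like cells. For C1qa, C1qb, C1qc (complement components), Tyrobp and Fcer1g (signalling adaptors), the injured astrocyte-like level was 0.00173 to 0.00361 of the immune level, and Csf1r, a growth factor receptor, had no UMI there. P2ry12 stood at 0.0151 (0.00685 to 0.0288). Cd74 stood at 0.000603 (1.53e-05 to 0.00336), H2-Aa at 0.00329 (0.000398 to 0.0119) and H2-Eb1 at 0.00210 (5.31e-05 to 0.0118), so their few UMIs were not separable from the level of the first 5 genes. H2-Ab1 stood at 0.00869 (0.00235 to 0.0224), from 4 UMIs, and its interval met those of the same 5 genes. H2-DMa stood at 0.0526 (0.0302 to 0.0858). In the uninjured library the first 5 genes stood at 0.000139 to 0.000256, Csf1r at 0.000479 and P2ry12 at 0.00554, against 0.000122 for Cd74 and 0.0300 (0.0183 to 0.0510) for H2-DMa. These ratios differed widely between myeloid genes, so no level of H2-DMa above background is read from them. Among astrocyte-like cells, 3.69% of injured and 1.96% of uninjured cells had an H2-DMa UMI, at median depths of 3683 and 3324 gene UMIs. Brd2, which overlaps H2-DMa on the other strand, was at 68.9 and 41.9 CPM in injured and uninjured astrocyte-like cells and at 93.6 and 187 CPM in immune cells, and its part in the H2-DMa level was not tested.

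The level of Ciita was close to the limit of detection. Injured macrophage- or monocyte-like cells had 5 UMIs in 4 cells (6.86 CPM, 2.23 to 16.02) and uninjured ones 2 UMIs in 2 cells (50.05 CPM, 6.06 to 181). No Ciita UMI was seen in 73 injured microglia-like cells, which by a limit of 3 counts allows a share of cells with a UMI of up to 4.11%, or in 23 uninjured ones, which by the same limit allows up to 13.04%. Astrocyte-like cells had 2 injured and 14 uninjured UMIs (0.907 CPM, 0.110 to 3.27, and 1.16 CPM, 0.633 to 1.94). Dexi, which overlaps Ciita on the other strand, was at 30.4 and 43.6 CPM in these cells, and its part in the Ciita UMIs was not tested.

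Within the macrophage- or monocyte-like class, a few cells carried nearly all of the class II UMIs. In the injured library 8 of 56 cells (14.3%) had a UMI of all 4 of Cd74, H2-Aa, H2-Ab1 and H2-Eb1, and these 8 cells held 97.9% of the 2682 UMIs of the 4 genes in the class. In the uninjured library 6 of 9 cells (66.7%) had all 4, with 97.2% of 425 UMIs. No cell outside this class had all 4, among 879 injured and 4159 uninjured cells. The remaining injured cells of the class mostly lacked the 4 genes, with 38 cells at 0 for all of them. Between these, 7 injured cells had 1 of the 4 genes, 1 had 2 and 2 had 3. The UMIs were thus concentrated in a few cells, while detection was graded, at a depth of 12100 gene UMIs in the median injured cell of the class.

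The class II-high cells did not share 1 set of other markers. The highest injured cell, in sub-cluster 4, carried 524 Cd74, 250 H2-Aa, 195 H2-Ab1, 207 H2-Eb1, 17 H2-DMa and 2 Ciita UMIs among 18958 gene UMIs, with 4 UMIs of Itgax and 1 of Flt3, both known from dendritic cells. It alone held 43.9% of the UMIs of the 4 genes in its class. The next, with 468 UMIs of the 4 genes, carried Ccr2 (2 UMIs) and Itgax (3 UMIs). Over the 8 injured cells, Ccr2 was found in 5, Flt3 in 3, Itgax in 3 and Mrc1 in 3. Of the 6 uninjured cells, 5 carried both Mrc1 and Pf4, and the sixth carried 3 UMIs of Cd79a, a B cell receptor component. P2ry12 was found in 2 and Tmem119 in 2 of the 8 injured cells, with at most 1 UMI each, and in none of the uninjured 6. Because single cells are not replicates, these counts describe the cells of 2 libraries.

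**Figure D3:**
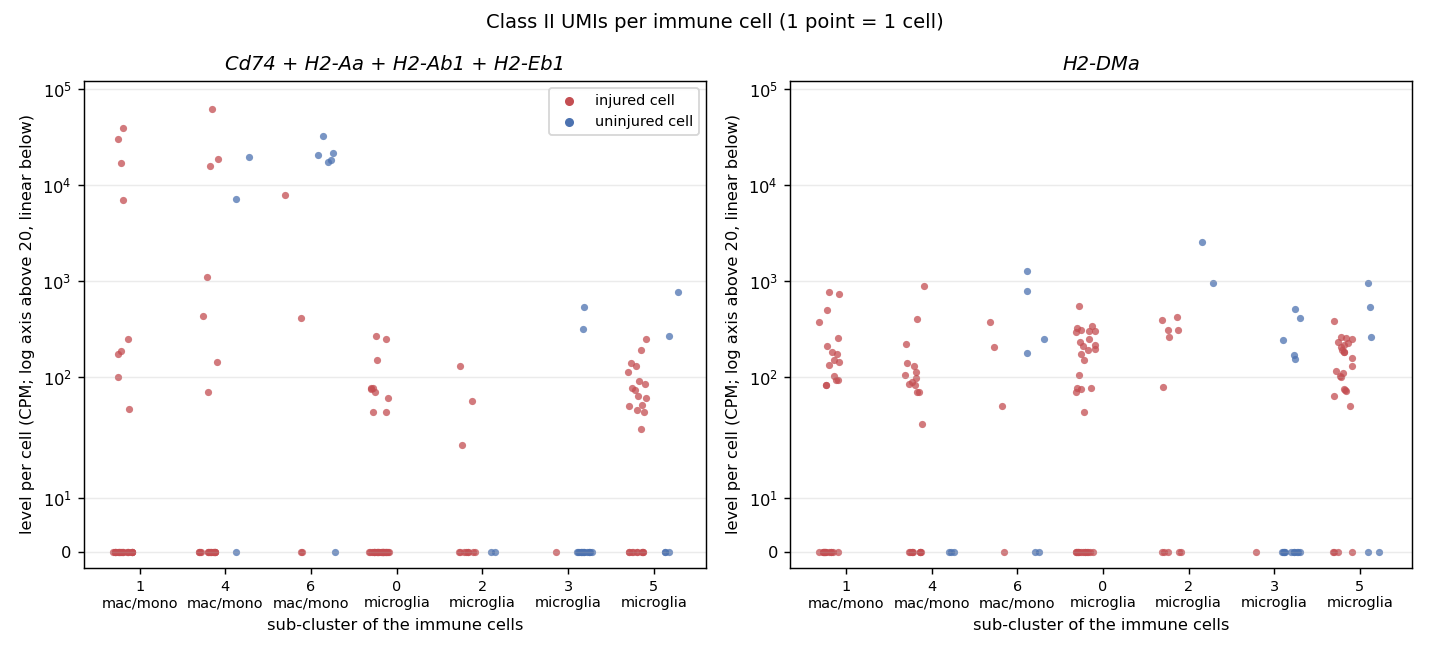
Level per cell (y axis, CPM, log above 20 and linear below) of the summed Cd74, H2-Aa, H2-Ab1 and H2-Eb1 (left) and of H2-DMa (right) in each immune cell, by sub-cluster (x axis) and condition, where 1 point is 1 cell. The 14 cells with all 4 genes form the upper band of sub-clusters 1, 4 and 6, whereas microglia-like cells with any of the 4 genes lie below it and H2-DMa shows no such band.

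In microglia-like cells most UMIs of the 4 genes were Cd74. Of 65 UMIs of the 4 genes in injured microglia-like cells, 83.1% (71.7 to 91.2%) were Cd74, against 51.0% (49.1 to 53.0%) in injured macrophage- or monocyte-like cells. Among these UMIs, H2-Aa made up 1.54% (0.0389 to 8.28%) in the first class and 19.4% (17.9 to 20.9%) in the second. H2-Ab1 did not differ in this way, at 13.8% (6.53 to 24.7%) and 14.4% (13.1 to 15.8%). The pooled proportions in macrophage- or monocyte-like cells were nearly the same in both conditions, with Cd74 at 54.4% (49.5 to 59.2%) and H2-Aa at 19.3% (15.7 to 23.4%) of uninjured UMIs. These intervals leave out the spread between cells, and 1 cell gave 1176 of the 2682 injured UMIs of that class. Cd74 made up 524 of those 1176, but 78 of 105 in another injured cell and 20 of 54 in an uninjured one. The class proportions thus mostly describe a few cells. No microglia-like cell had more than 7 UMIs of the 4 genes in the injured library. Cd74 was found in 24 of 73 injured (32.9%, 22.3 to 44.9%) and 4 of 23 uninjured microglia-like cells (17.4%, 4.95 to 38.8%). At equal depth this order turned. After thinning to 1000 gene UMIs, Cd74 was found in 4 of 66 injured (6.06%, 1.68 to 14.8%) and 4 of 19 uninjured cells (21.1%, 6.05 to 45.6%), with 7 and 4 shallower cells left out, so neither order is read from these shares.

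The question between conditions was whether injury came with another class II level in the same class of cell. In macrophage- or monocyte-like cells the 4 abundant genes were lower in the injured library, but this rested on which cells were compared. Cd74 fell from 5780 to 1879 CPM, a log2 ratio of -1.62 (ratio 0.325, 0.283 to 0.375). H2-Aa had a log2 ratio of -1.52, H2-Eb1 of -1.45 and H2-Ab1 of -1.27. H2-DMa, at 128 against 150 CPM, had a ratio of 0.850 (0.376 to 2.38), and Ciita one of 0.137 (0.0225 to 1.44). A log2 ratio of at most -1 or at least 1, on CPM + 1, was the rule for a call. By it 5 of the 6 genes were lower and none higher, where 25.7% of 7666 genes of the class were lower and 21.3% higher. The 4 genes follow the same few cells, so they are not separate pieces of evidence.

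The direction depended on which few uninjured cells were kept. Xist without a Y-linked UMI was found in 17 of 56 injured cells of the class and in none of the 9 uninjured ones. When cells with an Xist UMI were left out and all others kept, the uninjured 9 stayed whole and the log2 ratio of Cd74 was -1.25. Among cells with a UMI of a Y-linked gene and none of Xist, 26 injured and 3 uninjured macrophage- or monocyte-like cells remained, and the log2 ratio of Cd74 was 1.07, that of H2-Aa 0.76, that of H2-Ab1 2.03 and that of H2-Eb1 1.27. Of the 3 uninjured cells, 1 had all 4 genes, so that ratio depended on 1 cell. The reversal came with the loss of 6 uninjured cells that had no Y-linked UMI and no Xist UMI. Without the highest cell of each class the ratio of the 6 genes summed was -1.92, against -1.51 with it. The sub-clusters also differed between conditions. Within sub-cluster 6, Cd74 was at 1481 CPM (1163 to 1859) in 4 injured cells and 9371 CPM (8108 to 10775) in 6 uninjured cells. Within sub-cluster 4 it was at 2469 CPM (2307 to 2638) in 23 injured cells and 1795 CPM (1243 to 2508) in 3 uninjured cells. No direction for the class is drawn from these values.

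In microglia-like cells the intervals of the Cd74 and H2-DMa ratios included 1. H2-DMa had 184 injured and 16 uninjured UMIs, with a ratio of 0.766 (0.460 to 1.37). Cd74 had 54 and 8 UMIs, with a ratio of 0.450 (0.213 to 1.10), so that changes up to about the size of the call rule were not detectable at this depth. H2-Ab1 had 9 injured and no uninjured UMIs, which the shallower uninjured cells (77526 gene UMIs against 1163234) could not separate from no difference. By the rule Cd74 was lower and no member higher, among 2 members at 10 CPM or more, where 27.3% of 7874 genes were lower and 18.3% higher. In astrocyte-like cells no member reached 10 CPM. There, 11.7% of 9415 genes were called higher and 6.77% lower.

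**Figure D4:**
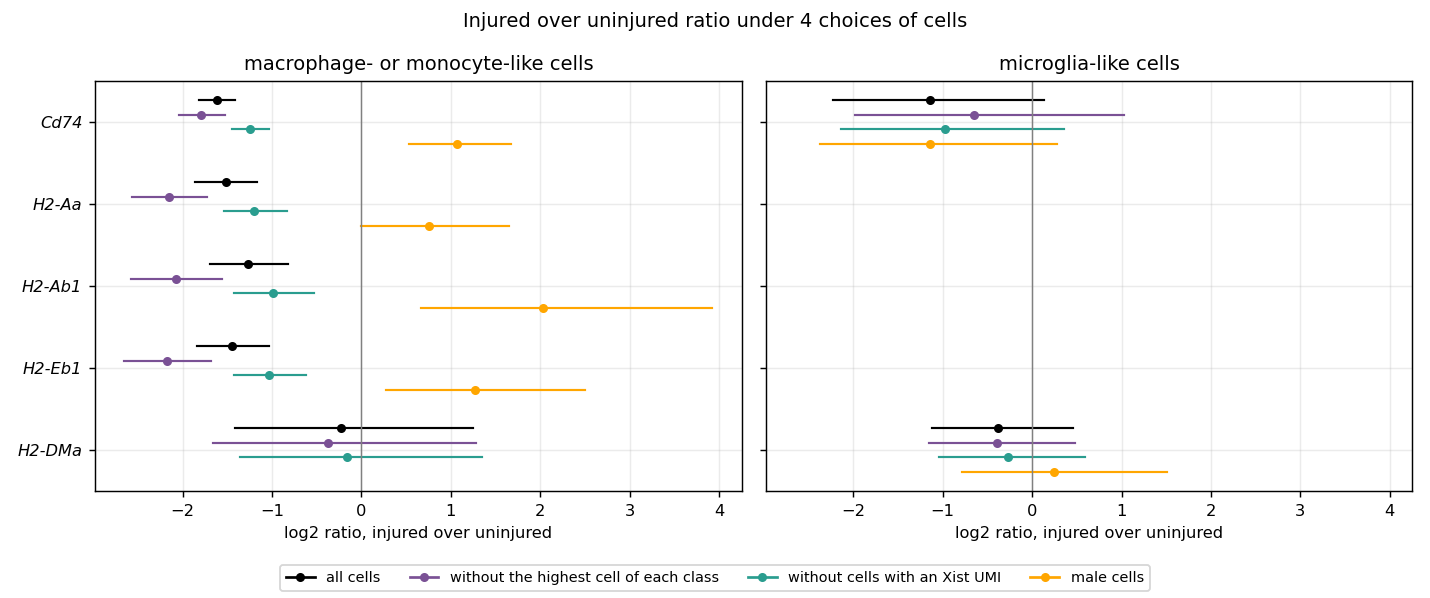
Log2 ratio of CPM, injured over uninjured (x axis), for 5 class II genes (y axis) in macrophage- or monocyte-like (left) and microglia-like cells (right) under 4 choices of cells, with exact conditional binomial 95% intervals as bars. Pairs with no UMI on 1 side are not drawn. In macrophage- or monocyte-like cells the points of the 4 abundant genes lay below 0 except with male cells, where they lay above it.

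Other class II chains were few apart from H2-DMb1. H2-DMb1, whose product pairs with H2-DMa, was at 72.8 CPM in injured macrophage- or monocyte-like cells and 74.8 CPM in injured microglia-like cells, in 21 of 56 and 33 of 73 cells. Uninjured values were 225 CPM (9 UMIs) and 64.5 CPM (5 UMIs). H2-DMb1 and H2-DMb2 are near-identical copies, so reads may have been split between them, and H2-DMb2 had 2 and 3 UMIs in the injured classes and 5 in 1 uninjured cell, the one with Cd79a. Of the H2-O chains, which restrain the H2-DM chaperone, H2-Oa had 14 UMIs in injured microglia-like and 6 in injured macrophage- or monocyte-like cells, and H2-Ob had 11 and 3. H2-Eb2 had 1 UMI among immune cells, in an uninjured one. Of 5 chains measured, 3 reached 10 CPM in macrophage- or monocyte-like cells and all 3 were called lower, where 25.7% of all genes were lower. Of these calls, H2-Eb2 rested on 0 injured against 1 uninjured UMI and H2-DMb2 on 2 against 5. In microglia-like cells 3 chains reached 10 CPM and 2 were called lower, where 27.3% of all genes were lower. In astrocyte-like cells the 5 chains gave 1 UMI in all, of H2-DMb1, against 17 and 68 of H2-DMa.

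Enzymes that prepare class II peptides were abundant in both immune classes of the injured library. In the uninjured macrophage- or monocyte-like cells the highest cell for each gene held 100 of 120 Ctss, 256 of 267 Ctsd, 169 of 218 Ctsb and 20 of 34 Lgmn UMIs. Each of these uninjured levels therefore rests mostly on 1 cell, and whether it was the same cell for each enzyme was not checked. Ctss, the protease that trims Cd74, was at 4622 CPM in injured and 3003 CPM in uninjured macrophage- or monocyte-like cells and at 3369 and 3586 CPM in microglia-like cells. Lgmn, an asparaginyl endopeptidase of the endosome, was at 1332 and 851 CPM in the first class and at 2287 and 1638 CPM in the second. Ctsd, a lysosomal aspartic protease, was at 14159 CPM in injured against 2799 CPM in uninjured microglia-like cells (ratio 5.06, 4.42 to 5.81) and Ctsb at 4021 against 826 CPM (ratio 4.87, 3.81 to 6.33). Of 7 enzymes, 4 were called higher in microglia-like cells (Ifi30, Ctsl, Ctsb and Ctsd) and none lower, where 18.3% of all genes of the class were higher and 27.3% lower. In macrophage- or monocyte-like cells 1 was called higher (Ifi30, the thiol reductase of the endosome, at 802 against 150 CPM) and none lower, where 21.3% of all genes were higher and 25.7% lower. Ctss separated the immune cells from astrocyte-like cells, which had 17 injured and 5 uninjured UMIs of it, whereas Ctsb reached 1151 CPM in injured astrocyte-like cells.

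Of 10 factors listed for class II transcription, some were found in classes with few class II UMIs and others were not. In injured microglia-like cells Spi1, a myeloid master regulator, was at 401 CPM and Irf8 at 232 CPM, against 408 and 130 CPM in injured macrophage- or monocyte-like cells. Nfyc, a subunit of NF-Y, was at 75.7 CPM in injured and 169 CPM in uninjured astrocyte-like cells, above the 37.1 CPM of injured macrophage- or monocyte-like cells. Creb1 was at 50.8 CPM in both of these injured classes. Spi1, Irf8 and Irf4 had 5, 0 and 0 UMIs in injured astrocyte-like cells. The RFX subunits were low, with Rfx5 at 1 UMI, Rfxap at 10 and Rfxank at 6 in injured macrophage- or monocyte-like cells, at 7, 20 and 11 in injured microglia-like cells, and at 16, 45 and 35 in injured astrocyte-like cells. Of these factors, 9 were measured at 10 CPM or more in macrophage- or monocyte-like cells, with 2 called higher and 4 lower. Over all genes of that class 21.3% were higher and 25.7% lower. In microglia-like cells 7 were, with none higher and 2 lower, where 18.3% of all genes were higher and 27.3% lower.

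The interferon gamma pathway, the classical inducer of Ciita, was read from 8 genes. Its ligand Ifng gave no UMI in immune cells of either library and 1 in uninjured astrocyte-like cells. Ifngr1, a receptor chain, was at 195 and 199 CPM in injured macrophage- or monocyte-like and microglia-like cells, and Ifngr2 at 146 and 177 CPM. Jak1 was lower in injured cells of both classes, at 270 against 576 CPM and at 280 against 1212 CPM, as was Irf1, at 81.0 against 200 CPM and at 54.2 against 361 CPM. In macrophage- or monocyte-like cells 3 of 7 were called lower and none higher, and in microglia-like cells 2 of 6 lower and 1 higher. With 25.7% and 27.3% of all genes of these classes called lower, counts this small do not set the list apart. Uninjured microglia-like cells were mostly of sub-cluster 3, whose leading genes held Egr1, Jun and Fos, immediate early genes, and their part in these values was not tested.

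Among costimulatory and turnover genes, Cd86 was at 295 against 1001 CPM in injured and uninjured macrophage- or monocyte-like cells and at 368 against 864 CPM in microglia-like cells. March1, the ligase that removes class II from the surface, was at 87.8 and 65.3 CPM in the 2 injured classes. Cd80 was at 49.4 and 69.6 CPM and Cd274 at 64.5 and 52.4 CPM. In macrophage- or monocyte-like cells 2 of 5 genes were called higher and 1 lower, and in microglia-like cells none and 1. Shares over all genes, for these and the pooled counts below, were 21.3% higher and 25.7% lower in the first class. In the second they were 18.3% and 27.3%. Over the 5 pathway lists together, 31 of 37 genes were at 10 CPM or more in macrophage- or monocyte-like cells, with 5 called higher and 11 lower (median log2 ratio 0.01, against -0.19 over all genes of the class). In microglia-like cells 28 were, with 5 higher and 7 lower (median -0.22, against -0.26). In astrocyte-like cells 15 were, with 2 higher, the lysosomal Ctsb and Ctsd, and 1 lower, Nfyc. Over all genes of that class 11.7% were higher and 6.77% lower.

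Class I genes, which nearly all nucleated cells use, gave the contrast. B2m was at 1443, 1262 and 224 CPM in injured macrophage- or monocyte-like, microglia-like and astrocyte-like cells, and at 701, 942 and 84.8 CPM in uninjured ones. In injured astrocyte-like cells B2m was 2.64 times (2.36 to 2.94) and H2-D1 4.28 times (3.64 to 5.01) the uninjured level, whereas H2-K1 was at 134 CPM in both conditions. Tapbp, which loads class I peptides, was at 38.5 against 23.1 CPM. Of 6 class I genes at 10 CPM or more there, 2 were called higher and none lower, where 11.7% of all genes were higher and 6.77% lower. In macrophage- or monocyte-like cells 3 and 1 of 7 were (21.3% and 25.7% of all genes). In microglia-like cells 1 and none of 6 were (18.3% and 27.3%). Nlrc5, the class I counterpart of Ciita, was at 9.07 against 2.32 CPM in astrocyte-like cells (20 and 28 UMIs, ratio 3.92, 2.09 to 7.21). Ciita had a ratio of 0.783 (0.0864 to 3.41) in them.

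Over 14 combinations of class and condition with at least 20 cells, the genes whose log2 level was most like that of the 6 genes summed were Ttc7 (Pearson's r = 0.920), Aoah (0.914), Rgs2 (0.908), AB124611 (0.907) and AU022793 (0.904). Aoah, an enzyme that inactivates lipopolysaccharide, was at 98.8 CPM in injured macrophage- or monocyte-like, 12.04 CPM in injured microglia-like and 0.907 CPM in injured astrocyte-like cells. Rgs2, a regulator of G protein signalling, was at 298, 131 and 5.89 CPM in the same classes. Among the members, each itself part of the sum, r was 0.939 for H2-DMa, 0.913 for Cd74 and 0.697 for H2-Eb1. H2-DMa held 68 of 92 summed UMIs in uninjured astrocyte-like and 184 of 249 in injured microglia-like cells. In such classes the sum mostly follows H2-DMa, so its r is partly with itself. The points share 2 libraries, differ in depth and leave out the 9 uninjured macrophage- or monocyte-like cells. None of the 5 genes was among the first 5 when ranks were used.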

How the data were processed

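The authors deposited raw UMI counts of genes per cell, 1 matrix per condition, counted on mm10 with Cell Ranger 8.0.1 per the submitters' processing notes, while the file headers name version 7.1.0. Barcode libraries were not used here. Barcodes at or below 500, or at or above 50000, gene UMIs were dropped. Counts were scaled to 10000 per cell and clustered with scanpy 1.11.5 (2000 variable genes, 15 components, 15 neighbours, Leiden resolution 0.5; 10 components and 10 neighbours for immune cells). A cluster was named from marker lists by its mean score (above 0.2), with at least 3 markers in 10% of its cells and no other class leading its top 10 genes. This scoring was set after the matrices were opened. Scrublet marked 2 of 879 and 0 of 4159 cells, too few to have worked, so no doublets were removed. The 6 genes, the lists and the comparisons were chosen with earlier results of these data known. The text names the 6 genes, up to 4 genes per longer list by immune level or those called, and the 5 most alike, while Ifng, Nlrc5, Tyrobp, Fcer1g, Csf1r, P2ry12, Irf4 and the RFX subunits were named after their values were seen. Of the listed genes, 2 are not reported here. Y-linked genes were Ddx3y, Eif2s3y, Kdm5d and Uty. UMI sums have exact Poisson, shares Clopper-Pearson and ratios conditional binomial 95% intervals, and the limit for a count of 0 was 3 UMIs or cells. Log2 ratios add 1 CPM. Ratios were tried on simulated Poisson sums, the model that their intervals assume. Such sums hold no spread between cells, so the trial cannot show that the intervals fit these cells. Alternatives were other filters, clusterings, pseudocounts and cell choices.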

Additional observations from a re-analysis of the deposited data

Results flagged for a closer look

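H2-Ab1 moved in opposite directions between conditions in 2 classes. Its log2 ratio, injured over uninjured, was -1.27 in macrophage- or monocyte-like cells and 1.17 in astrocyte-like cells, and the intervals lay on opposite sides of 0. The second value rests on 4 injured and 3 uninjured UMIs. The myeloid genes C1qa (ratio 24.1), Tyrobp (47.5) and Ctss (18.6) were also higher in injured than in uninjured astrocyte-like cells. The first value turned to 2.03 in male cells, of which 3 were uninjured. The difference between the classes was not tested.

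H2-DMa had UMIs in injured cells that the main comparisons left out and only the setting with no cell filter used. Its level there was below the 7.71 CPM of injured astrocyte-like cells. The 40 injured cells at or above 50000 gene UMIs held 11 H2-DMa UMIs in 9 cells (3.32 CPM), above the 3 counts that a count of 0 allows, while Cd74 had 3, H2-Eb1 3, H2-Ab1 1, and H2-Aa and Ciita 0.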

How the results depend on the processing

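No paired analysis was possible because injured and uninjured cells came from a single library each. Among these 3 named classes and over all settings tried, the 6 genes summed stayed higher in macrophage- or monocyte-like than in microglia-like cells, and higher there than in astrocyte-like cells, in both conditions. Their log2 ratio, injured over uninjured, in macrophage- or monocyte-like cells was -1.51, and cells with a Y-linked UMI and no Xist reversed it, with 3 of 9 uninjured cells left. These male cells gave 1.15 in that class, where single genes gave 1.07 (Cd74), 0.76 (H2-Aa), 2.03 (H2-Ab1) and 1.27 (H2-Eb1), and in all immune cells 1.43 for the sum, 1.34 (Cd74), 1.31 (H2-Aa), 2.59 (H2-Ab1) and 1.81 (H2-Eb1). The same cells gave 5493 and 2482 CPM in injured and uninjured macrophage- or monocyte-like cells, log2 ratios to microglia-like cells of 4.51 and 3.19, a share of the UMIs in immune cells of 98.7% and 41.9%, Cd74 in 33.3% of uninjured cells, 10 pathway genes higher and 4 lower, and -2.77 for H2-DMa in uninjured macrophage- or monocyte-like over astrocyte-like cells, with no UMI in the first. Without the highest cell of each class the levels were 2234 and 8432 CPM, the ratio -1.92, the injured log2 ratio to microglia-like cells 3.42, and the immune shares 96.8% and 72.4%. Chosen after seeing the data, an immune resolution of 1.0, which left 23 injured and 3 uninjured cells of the class unnamed, gave 2411 and 17695 CPM, -2.87, 3.49 and 5.83 and 9 pathway genes higher. Leaving out cells with an Xist UMI gave 4863 CPM, -1.16, 4.38 and 98.4%. Leaving out immune cells with a B cell or dendritic marker, with Cd79b, Itgax, Batf3 and Naaa not counted, gave 1708 CPM, -2.60, 2.98 and 94.9%. A pseudocount of 10 CPM set the log2 ratio of microglia-like to astrocyte-like cells at 3.33 (injured) and 4.18 (uninjured), and without a filter on low genes 10 pathway genes were higher in each immune class. Cd74 was found in 13.7% of injured microglia-like cells at 2 UMIs and in 6.06% after thinning. Of the 5 most alike genes, 3 were found with no cell filter, 3 at resolution 1.0, 2 without the highest 5% of Scrublet scores, 2 without B cell or dendritic markers, and 0 in male cells or by Spearman. The causes were not tested. Depth limits Ciita and every chain gene outside macrophage- or monocyte-like cells.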
